A study of Mus musculus with 12 samples.

Results

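The 10 genes that mark resting and adventitial fibroblasts here, Pi16, Tcf21, Pdgfra, Dpt, Dcn, Clec3b, Cd34, Ebf2, Hmcn2 and Cd248, were followed across 12 RNA-seq libraries of cells sorted from mouse hearts. The genes were taken by symbol, 10 of the 53801 rows of the table, and each symbol had 1 row. All 10 passed the filter on low counts, which left 14964 genes to test. The series asked about macrophages of the heart after myocardial infarction, which was produced by tying off the left anterior descending coronary artery. Cells were sorted as CCR2low or CCR2hi by the level of CCR2, a chemokine receptor carried by monocytes that enter the tissue. The 4 groups, with 3 libraries each, were Bhlhe41dTomato-Cre+/- CCR2low, Bhlhe41dTomato-Cre+/- CCR2hi, WT CCR2low and WT CCR2hi.

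All 12 libraries are labelled as infarcted hearts of male C57BL/6N mice, and no uninfarcted group was analysed here. The name Bhlhe41dTomato-Cre+/- reads as 1 copy of a red reporter with Cre at Bhlhe41, which encodes a transcriptional repressor. In the tables the columns of these libraries are named KD, which the labels do not explain, and they were matched to the titles by gate and number. The characteristics of these samples are shifted by 1 field, so that male stands under genotype, and the genotype was read from the titles. The labels do not say what the allele does to the Bhlhe41 protein, how old the mice were, how long after infarction cells were taken or whether animals were pooled, so p-values measure only the spread between these libraries. Bhlhe41 itself had 226 to 477 counts in Bhlhe41dTomato-Cre+/- CCR2low libraries, against 642 to 774 in WT CCR2low libraries. It had 132 to 198 counts in Bhlhe41dTomato-Cre+/- CCR2hi libraries, against 531 to 920 in WT CCR2hi libraries, so every Bhlhe41dTomato-Cre+/- library was below every WT library of its gate. Xist, the RNA of the inactive X chromosome, had 1403 to 3699 counts in the Bhlhe41dTomato-Cre+/- libraries, against 0 to 3 in the WT libraries. Counts of 4 Y-linked genes were 105 to 1446 in the Bhlhe41dTomato-Cre+/- libraries and 668 to 1741 in the WT libraries. The genotype and this difference in sex-linked RNA cannot be told apart in the comparisons of genotype.

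Fibroblasts build and maintain the collagen-rich matrix of the heart, and after infarction part of them become activated and lay down scar. Single-cell atlases describe a Pi16-positive fibroblast of the vessel adventitia, shared by many organs, that also carries Dpt, Cd34 and Clec3b and is regarded as a resting reservoir. In the heart, Tcf21 and Pdgfra mark the resident fibroblasts that derive from the epicardium, and Tcf21 is known to be lost as these cells become myofibroblasts.

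On the mouse genome build GRCm38, in the GENCODE release 21 annotation, Pi16 lies on chromosome 17 from 29317680 to 29330593 and Tcf21 on chromosome 10 from 22817281 to 22820174. Pdgfra lies on chromosome 5 from 75152292 to 75198215, Ebf2 on chromosome 14 from 67233292 to 67430918 and Hmcn2 on chromosome 2 from 31314415 to 31460738. Dpt and Cd34 lie on chromosome 1, from 164796644 to 164824266 and from 194938819 to 194961279. Dcn lies on chromosome 10 from 97479609 to 97518143, Clec3b on chromosome 9 from 123150946 to 123157432 and Cd248 on chromosome 19 from 5068078 to 5070682. Tcf21 is on the minus strand and the other 9 genes are on the plus strand, and all 10 are protein-coding. Antisense genes overlap Pi16, Tcf21, Pdgfra, Dpt, Cd34 and Ebf2. Overlap was taken over whole genes, introns included, and overlap of exons was not checked. No label says whether counting used the strand, so where transcripts of these 6 genes and their antisense partners overlap, reads may be mixed.

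Promoters are shown for the members whose window held a match to a searched motif. RefSeq sequences (GRCm38.p6, 250 bases before to 50 after the start) matched 6 of the 10 members, and these 4 are printed: Pi16 at chr17:29318632-29318931 (plus strand), Tcf21 at chr10:22820094-22820393 (minus strand), Dpt at chr1:164796413-164796712 (plus strand) and Hmcn2 at chr2:31314082-31314381 (plus strand). Capitals mark matches, on either strand, to CAGCTG (an E-box), CCCNNGGG (the half-sites bound by EBF factors), TGANTCA (the AP-1 site) and TATAAA.
Pi16: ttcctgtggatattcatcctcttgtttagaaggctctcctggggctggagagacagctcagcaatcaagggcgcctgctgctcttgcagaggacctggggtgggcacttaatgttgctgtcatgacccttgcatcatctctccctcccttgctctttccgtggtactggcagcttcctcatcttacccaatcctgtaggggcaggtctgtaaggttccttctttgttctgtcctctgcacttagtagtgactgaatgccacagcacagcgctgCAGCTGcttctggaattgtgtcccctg
Tcf21: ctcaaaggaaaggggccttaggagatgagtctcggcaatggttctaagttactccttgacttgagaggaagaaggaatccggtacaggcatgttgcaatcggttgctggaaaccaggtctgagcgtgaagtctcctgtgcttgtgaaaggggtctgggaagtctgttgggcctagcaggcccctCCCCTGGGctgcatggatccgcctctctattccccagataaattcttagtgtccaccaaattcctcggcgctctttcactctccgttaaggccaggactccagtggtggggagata
Dpt: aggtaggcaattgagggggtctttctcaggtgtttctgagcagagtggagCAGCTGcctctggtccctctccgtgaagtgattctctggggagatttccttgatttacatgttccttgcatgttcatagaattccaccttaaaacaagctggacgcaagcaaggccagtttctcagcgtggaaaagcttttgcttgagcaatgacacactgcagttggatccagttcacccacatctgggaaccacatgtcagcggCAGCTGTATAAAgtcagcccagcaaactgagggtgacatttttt
Hmcn2: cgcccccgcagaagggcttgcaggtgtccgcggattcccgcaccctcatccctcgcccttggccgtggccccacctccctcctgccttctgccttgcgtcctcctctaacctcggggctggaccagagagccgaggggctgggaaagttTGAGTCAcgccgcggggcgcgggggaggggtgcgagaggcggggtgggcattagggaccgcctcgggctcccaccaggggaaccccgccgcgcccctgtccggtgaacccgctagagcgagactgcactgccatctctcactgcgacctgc
CAGCTG was found once in the Pi16 window and at 2 places in the Dpt window, where the second match runs directly into TATAAA. Among 32851 promoters of the same length, 16.3% held CAGCTG and 13.6% held TATAAA. CCCNNGGG was found in the Tcf21 window and in 13.7% of all promoters. TGANTCA was found in the Hmcn2 window and in 7.81% of all promoters. No match was found in the windows of Cd34 and Pdgfra, which says only that these letters are not in those 300 bases.

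The libraries held 17702018 to 20826688 counts each. A list of 17 macrophage genes took 3.25% ± 0.179 of counts in Bhlhe41dTomato-Cre+/- CCR2low libraries and 0.958% ± 0.138 in Bhlhe41dTomato-Cre+/- CCR2hi libraries (SD, n = 3 each). In WT mice the same list took 3.60% ± 0.152 in CCR2low libraries and 0.438% ± 0.170 in CCR2hi libraries (SD, n = 3 each). A list of 14 broad fibroblast genes, chiefly collagens, went the other way. It took 0.363% ± 0.190 in CCR2low and 5.05% ± 0.583 in CCR2hi libraries of Bhlhe41dTomato-Cre+/- mice, and 0.852% ± 0.226 in CCR2low and 8.95% ± 0.347 in CCR2hi libraries of WT mice (SD, n = 3 each). The CCR2hi libraries, labelled as macrophages, thus held more counts of the fibroblast list than of the macrophage list. The 10 members together made up 0.0228% to 0.0567% of counts in Bhlhe41dTomato-Cre+/- CCR2low and 0.351% to 0.507% in Bhlhe41dTomato-Cre+/- CCR2hi libraries. In WT mice they made up 0.0488% to 0.0617% of counts in CCR2low libraries and 0.487% to 0.672% in CCR2hi libraries. Fewer fibroblasts in a sorted sample and less RNA of these genes per fibroblast cannot be told apart in such bulk libraries.

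**Figure D1:**
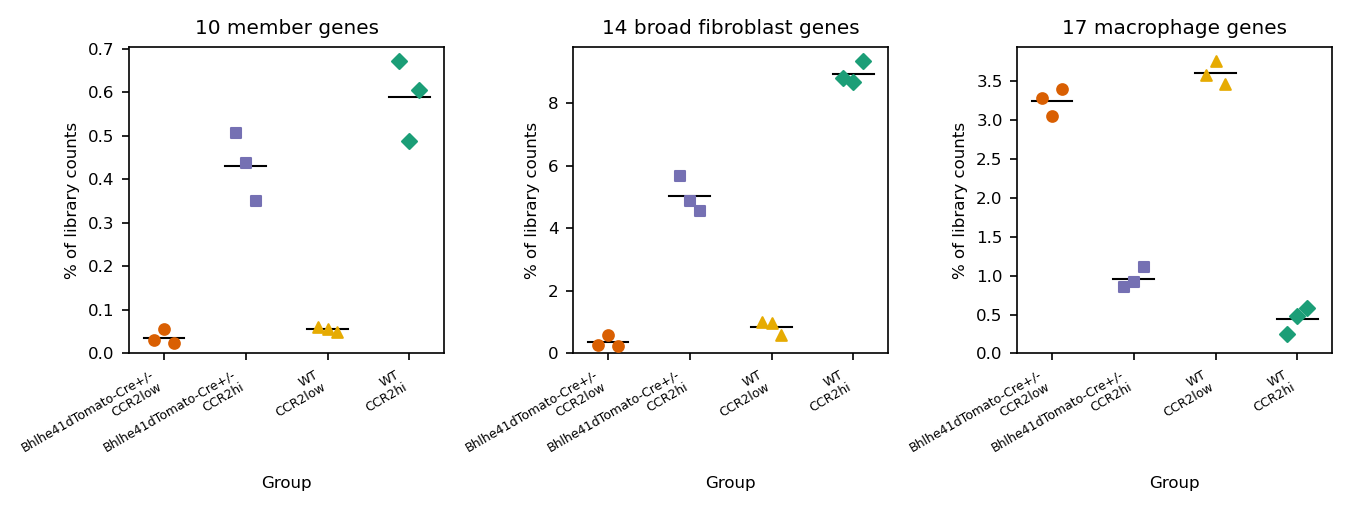
Share of each library's counts (%, vertical axes from 0) taken by the 10 member genes, 14 broad fibroblast genes and 17 macrophage genes; points are libraries and lines are group means (n = 3). The members and the fibroblast list are high in both CCR2hi groups, where the macrophage list is low.

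Compared per transcript length, as TPM, the 10 genes covered a wide range in every group. In WT CCR2hi libraries Dcn, a small proteoglycan that binds collagen fibrils, was highest at 2671 ± 734 TPM (SD, n = 3). Dpt, a matrix protein that speeds collagen fibril assembly, followed at 855 ± 181 TPM, and its range overlapped that of Pi16 at 813 ± 73.9 TPM. The order then ran through Cd34 (563 ± 67.0), Clec3b (259 ± 74.7), Cd248 (187 ± 10.3), Tcf21 (118 ± 10.6), Pdgfra (72.4 ± 21.1), Hmcn2 (23.2 ± 1.69) and Ebf2 (12.5 ± 4.84 TPM), with no overlap between neighbours from Pi16 down. Pi16 stood above Cd34 in WT CCR2hi libraries, and its mean was below that of Cd34 in each of the other 3 groups. In Bhlhe41dTomato-Cre+/- CCR2hi libraries the ranges of Dpt and Cd34, of Cd34 and Pi16, of Pi16 and Clec3b and of Cd248 and Tcf21 overlapped. Hmcn2 and Ebf2 were lowest in all 4 groups, at or under 0.98 TPM in every CCR2low library.

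**Figure D2:**
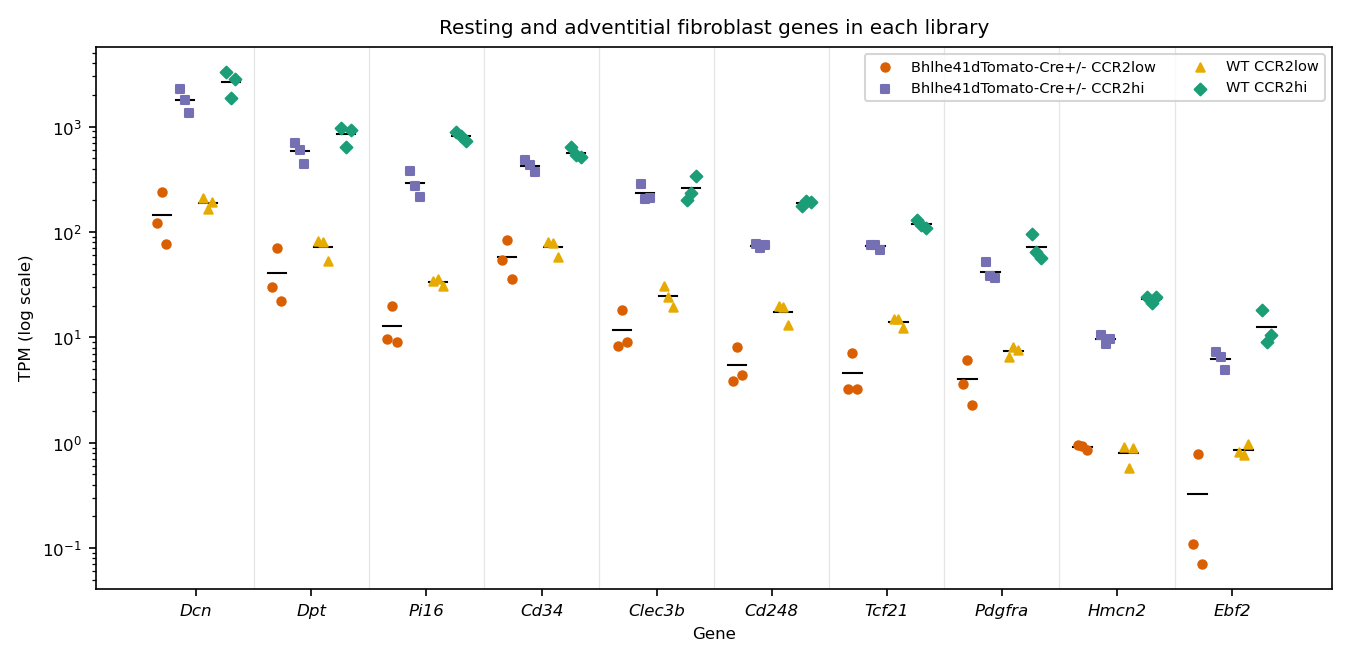
TPM of the 10 genes in each of the 12 libraries (log scale); points are libraries and lines are group means (n = 3). Both CCR2hi groups lie above both CCR2low groups for all 10 genes, and Dcn is highest in each group.

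The first comparison asked how CCR2low cells differed from CCR2hi cells within each genotype. All 10 genes were lower in CCR2low than in CCR2hi libraries in Bhlhe41dTomato-Cre+/- mice, and again all 10 in WT mice, by edgeR's quasi-likelihood test at a Benjamini-Hochberg adjusted p under 0.05. Of all tested genes, 29.1% were called lower in Bhlhe41dTomato-Cre+/- and 30% in WT mice. The members' median log2 fold change was -3.66 in Bhlhe41dTomato-Cre+/- mice, where the median over all genes was -0.01. In WT mice it was -3.13, where the median over all genes was 0.01. Every CCR2low library was below every CCR2hi library for each of the 10 genes in both genotypes, which held for 32.6% of all genes in Bhlhe41dTomato-Cre+/- and 32.2% in WT mice.

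Among the secreted and matrix proteins, Pi16, a secreted peptidase inhibitor, had 18.0, 32.8 and 19.5 counts per 1000000 (CPM, scaled by TMM factors) in Bhlhe41dTomato-Cre+/- CCR2low libraries, against 545, 409 and 320 CPM in Bhlhe41dTomato-Cre+/- CCR2hi libraries. In WT mice it had 55.8, 55.2 and 43.8 CPM in CCR2low libraries, against 997, 938 and 863 CPM in CCR2hi libraries. The log2 fold change of Pi16 was -4.18 ± 0.230 (SE) in Bhlhe41dTomato-Cre+/- mice (adjusted p = 1.03e-07, edgeR) and -4.18 ± 0.227 (SE) in WT mice (adjusted p = 6.06e-08, edgeR), 18.1-fold lower in each. Hmcn2, a large extracellular protein of the hemicentin family, had the widest gap in WT mice. It had 4.31, 3.57 and 3.62 CPM in WT CCR2low libraries, against 130, 99.8 and 107 CPM in WT CCR2hi libraries, a log2 fold change of -4.87. In Bhlhe41dTomato-Cre+/- mice Hmcn2 had 1.98, 4.91 and 2.35 CPM in CCR2low libraries, against 42.7, 41.5 and 34.8 CPM in CCR2hi libraries, a log2 fold change of -3.68. Clec3b encodes tetranectin, a plasminogen-binding protein. Its log2 fold change was -4.08 in Bhlhe41dTomato-Cre+/- mice and -3.02 in WT mice. For Dpt the values were -3.64 and -3.20, and for Dcn -3.42 and -3.44, in Bhlhe41dTomato-Cre+/- and in WT mice.

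Among the surface proteins, Cd34 had the smallest gap of the 10 genes in both genotypes. This sialomucin that endothelial and progenitor cells also carry had 91.2, 138 and 71.5 CPM in Bhlhe41dTomato-Cre+/- CCR2low libraries, against 698, 663 and 563 CPM in Bhlhe41dTomato-Cre+/- CCR2hi libraries. Its log2 fold change was -2.68 there and -2.59 in WT mice. A list of 10 endothelial genes was also lower in CCR2low in both genotypes, 10 of 10 called in each. Those genes took 0.0576% of counts in Bhlhe41dTomato-Cre+/- CCR2low and 0.292% in Bhlhe41dTomato-Cre+/- CCR2hi libraries, and 0.0754% in WT CCR2low and 0.246% in WT CCR2hi libraries. Their part in the Cd34 value was not tested. Pdgfra, the receptor for platelet-derived growth factor on mesenchymal cells, had log2 fold changes of -3.10 in Bhlhe41dTomato-Cre+/- and -2.95 in WT mice. Cd248, or endosialin, a membrane protein of fibroblasts and pericytes, had log2 fold changes of -3.53 in Bhlhe41dTomato-Cre+/- and -3.05 in WT mice.

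Of the transcription factors, Tcf21, a basic helix-loop-helix protein needed for cardiac fibroblasts to form, had 2.57, 5.56 and 3.06 CPM in Bhlhe41dTomato-Cre+/- CCR2low libraries, against 51.6, 54.9 and 49.0 CPM in Bhlhe41dTomato-Cre+/- CCR2hi libraries. It had 13.2, 12.3 and 9.54 CPM in WT CCR2low libraries, against 81.8, 74.8 and 72.1 CPM in WT CCR2hi libraries. The log2 fold changes were -3.79 in Bhlhe41dTomato-Cre+/- and -2.70 in WT mice. Ebf2, a zinc-finger factor of mesenchymal and brown fat precursors, had only 7, 36 and 5 counts in Bhlhe41dTomato-Cre+/- CCR2low libraries, against 392, 374 and 281 in Bhlhe41dTomato-Cre+/- CCR2hi libraries. Its log2 fold change of -4.26 ± 0.478 (SE) was the least precise among the members in that comparison.

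**Figure D3:**
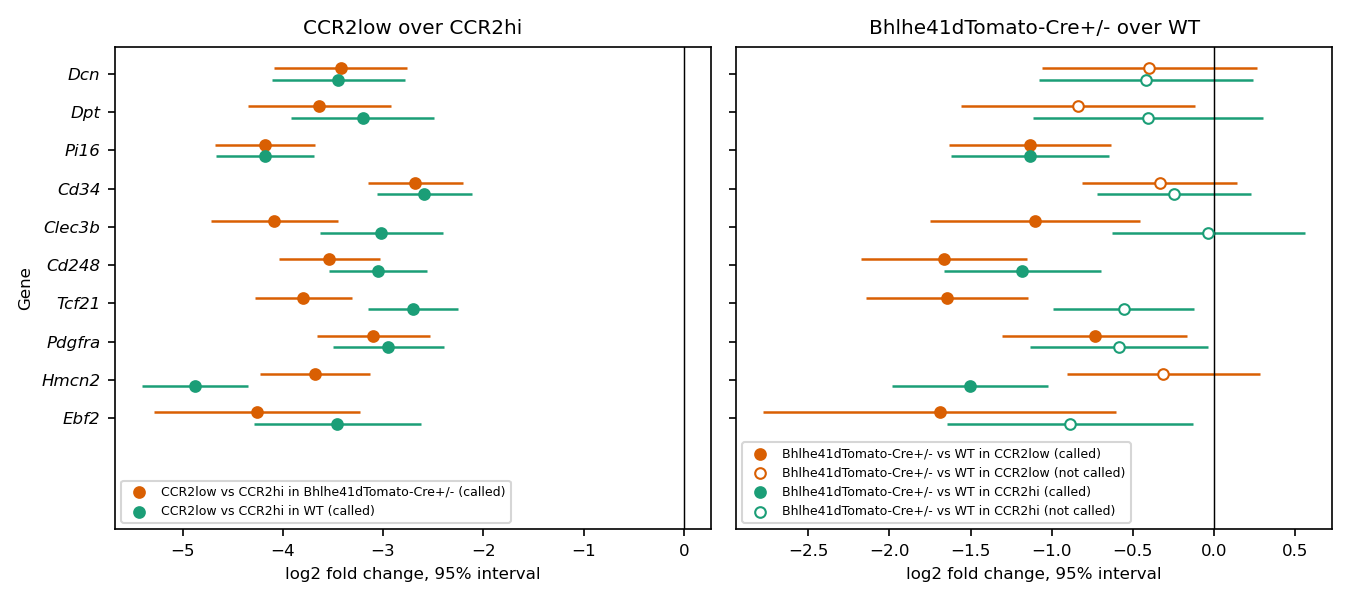
Log2 fold change of each gene with its 95% interval for CCR2low over CCR2hi (left panel) and Bhlhe41dTomato-Cre+/- over WT (right panel), from edgeR; filled points passed an adjusted p of 0.05. All points in the left panel lie below -2.5, whereas several intervals in the right panel include 0.

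The second comparison asked what differed between Bhlhe41dTomato-Cre+/- and WT mice within a gate. In CCR2low libraries 6 of the 10 genes were lower in Bhlhe41dTomato-Cre+/- mice, none was higher, and 4 did not pass the test, where 26.7% of all genes were called lower. The members' median log2 fold change was -0.97, and that of all genes was -0.18. Cd248 had 6.75, 14 and 9.23 CPM in Bhlhe41dTomato-Cre+/- CCR2low libraries, against 38.1, 35.1 and 21.9 CPM in WT CCR2low libraries (log2 fold change -1.66, adjusted p = 0.000220, edgeR). The 2 transcription factors fell by 1.64 (Tcf21) and 1.69 (Ebf2) on the log2 scale, with adjusted p of 0.000183 and 0.0138 (edgeR). Pi16 fell by 1.14 (adjusted p = 0.00193), Clec3b by 1.10 (adjusted p = 0.0104) and Pdgfra by 0.74 (adjusted p = 0.0391) on the same scale in edgeR. The call was lost in 15 of 24 alternatives for Pdgfra, in 8 for Ebf2, in 6 for Clec3b and in 1 for Pi16. For Pi16 this was scaling to the macrophage list (log2 fold change -0.87, adjusted p = 0.148, edgeR). Set against broad fibroblast genes, as described below, none of these 6 genes passed. No overlap between the groups was seen for 5 members, all lower in Bhlhe41dTomato-Cre+/-, as for 32.3% of all genes.

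Dpt, Dcn, Cd34 and Hmcn2 did not pass in CCR2low. Dpt had 33.8, 78.7 and 29.5 CPM in Bhlhe41dTomato-Cre+/- CCR2low libraries, against 103, 93.3 and 57.7 CPM in WT CCR2low libraries (log2 fold change -0.84, adjusted p = 0.0588, edgeR), and it passed in 4 of 24 alternatives. The 95% intervals of the log2 fold change ran from -1.06 to 0.26 for Dcn, from -0.81 to 0.14 for Cd34 and from -0.91 to 0.28 for Hmcn2, whose direction turned on the TPM scale (0.098 on log2(TPM + 1)). The count of members called moved with each library of the Bhlhe41dTomato-Cre+/- CCR2low group. Bhlhe41dTomato-Cre+/- CCR2low replicate 2 held 0.582% of its counts in the broad fibroblast list, against 0.262% and 0.245% in replicates 1 and 3 of its group. Without it all 10 members were called lower, and without replicate 1 or replicate 3 of that group 3 were. Of all genes, 4657 to 6524 were called in either direction on leaving out 1 library, against 6441 with all libraries. Genes of other cell types moved in the same comparison: 10 of 10 mural genes (pericyte and smooth muscle) and 8 of 8 cardiomyocyte genes were lower in Bhlhe41dTomato-Cre+/- CCR2low libraries. So were 6 of 8 mesothelial and epicardial, 4 of 6 adipocyte and 5 of 9 T, NK and B lymphocyte genes. Of 10 endothelial genes 2 were lower, of 17 macrophage genes 1, and of 6 neutrophil genes none. The mural list took 0.0122% to 0.0230% of counts in Bhlhe41dTomato-Cre+/- CCR2low libraries and 0.0521% to 0.0574% in WT CCR2low libraries. The part of these other cell types in the members' values was not tested.

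In CCR2hi libraries 3 of the 10 genes were lower in Bhlhe41dTomato-Cre+/- mice, none was higher and 7 did not pass, where 15.9% of all genes were called lower. The count was 6 without Bhlhe41dTomato-Cre+/- CCR2low replicate 2, 5 without replicate 3 of that group, 6 with 2 groups only and 6 on log2(TPM + 1). It was 10 when scaled to the macrophage list, which by itself moved the median gene by -0.976 (log2) in this comparison. Over the alternatives other than macrophage scaling 1329 to 5543 genes were called in either direction, against 4808 in the main fit. The median log2 fold change was -0.57 for the members and -0.03 for all genes. Hmcn2 had 42.7, 41.5 and 34.8 CPM in Bhlhe41dTomato-Cre+/- CCR2hi libraries, against 130, 99.8 and 107 CPM in WT CCR2hi libraries, a log2 fold change of -1.5 (adjusted p = 0.000347, edgeR). Cd248 had 115, 112 and 121 CPM in Bhlhe41dTomato-Cre+/- CCR2hi libraries, against 240, 274 and 274 CPM in WT CCR2hi libraries, a log2 fold change of -1.18 (adjusted p = 0.00177, edgeR). Pi16 fell by 1.14 on the log2 scale, or 2.2-fold, as it did in CCR2low (adjusted p = 0.00231, edgeR). Tcf21 lay just outside the threshold, with a log2 fold change of -0.56 (adjusted p = 0.0505, edgeR), and passed it in 12 of 24 alternatives. Clec3b had 144, 112 and 112 CPM in Bhlhe41dTomato-Cre+/- CCR2hi libraries, against 94.6, 112 and 170 CPM in WT CCR2hi libraries, and its 95% interval ran from -0.63 to 0.56. The groups did not overlap for 7 members, all lower in Bhlhe41dTomato-Cre+/-, as for 25.6% of all genes. A list of 6 neutrophil genes was higher in Bhlhe41dTomato-Cre+/- CCR2hi libraries, 6 of 6 called, at 0.0803% to 0.121% of counts, against 0.00346% to 0.00799% in WT CCR2hi libraries, and its part was not tested. Of the 17 macrophage genes 9 were also higher in that comparison and 1 was lower, and the list took on average 0.958% of counts in Bhlhe41dTomato-Cre+/- CCR2hi and 0.438% in WT CCR2hi libraries, and their part was not tested.

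The third comparison asked whether the difference between gates depended on genotype. The interaction, the log2 fold change between gates in Bhlhe41dTomato-Cre+/- mice minus that in WT mice, passed for Tcf21 and Hmcn2, where 12.6% of all genes passed in either direction. For Tcf21 it was -1.09 ± 0.306 (SE, adjusted p = 0.0353, edgeR), the gap between gates being wider in Bhlhe41dTomato-Cre+/- mice. For Hmcn2 it was 1.19 ± 0.354 (SE, adjusted p = 0.0444, edgeR), the gap being narrower in Bhlhe41dTomato-Cre+/- mice. Tcf21 lost its call in 15 of 23 alternatives and changed sign in 1, scaling to the macrophage list (0.19), and Hmcn2 lost its call in 10 of 23. Clec3b had an interaction of -1.07 with an adjusted p of 0.103 (edgeR). For Pi16 the estimate was -0.00024 with a 95% interval from -0.70 to 0.70. Genes of other cell types also had negative interactions: 7 of 8 cardiomyocyte, 6 of 8 mesothelial and epicardial, 6 of 10 mural and 6 of 6 neutrophil genes. So had 7 of 17 macrophage genes. Of the 14 broad fibroblast genes and the 10 endothelial genes none passed. The part of other cell types in the members' interactions was not tested. The gate comparisons and the genotype comparisons share libraries, and so are not independent of each other.

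Because fibroblast RNA as a whole differed between groups, each member was also expressed relative to the 14 broad fibroblast genes, as a percent of the geometric mean of their counts. Set against that list, 9 of the 10 members did not pass the test between gates in Bhlhe41dTomato-Cre+/- mice and 7 did not in WT mice. In WT mice 1 gene was higher in CCR2low (Cd34), where 91.9% of all genes were called higher, and 2 were lower (Pi16 and Hmcn2), where 0.221% were called lower. In Bhlhe41dTomato-Cre+/- mice only Cd34 passed, as higher in CCR2low, where 90.2% of all genes were called higher and 0.0334% lower. With same-numbered libraries as pairs in a replicate block, Ebf2 also passed there, as lower (log2 fold change -0.97, adjusted p = 0.0446, edgeR). This scale moved the median gene by 3.77 in Bhlhe41dTomato-Cre+/- and by 3.42 in WT mice (log2), so most genes were called higher on it.

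Cd34 stood at 96.1%, 64.8% and 73.3% of the fibroblast list in Bhlhe41dTomato-Cre+/- CCR2low libraries, against 38.0%, 39.6% and 39.8% in Bhlhe41dTomato-Cre+/- CCR2hi libraries, with a log2 fold change of 1.00 (adjusted p = 0.0115, edgeR). In WT mice it stood at 39.9%, 41.5% and 45.0% in CCR2low libraries, against 25.1%, 25.1% and 23.2% in CCR2hi libraries, with a log2 fold change of 0.79 (adjusted p = 0.0450, edgeR). The WT call was lost on leaving out any of 9 single libraries (adjusted p up to 0.118, edgeR), and that in Bhlhe41dTomato-Cre+/- mice on leaving out CCR2low replicate 1 (adjusted p = 0.0644, edgeR). It was also higher in Bhlhe41dTomato-Cre+/- than in WT mice in CCR2low by this measure (log2 fold change 0.89, adjusted p = 0.0366, edgeR), where 59.6% of all genes were called higher and 1.72% lower, and this call was lost on leaving out any of 7 single libraries (adjusted p up to 0.158, edgeR). Between gates all 10 endothelial genes were also higher in CCR2low on this scale in both genotypes. Their median log2 fold change was 1.36 in Bhlhe41dTomato-Cre+/- mice, where 90.2% of all genes were called higher. In WT mice it was 1.89, where 91.9% were. Their part in the Cd34 ratio was not tested. Pi16 was 19.0%, 15.4% and 20.0% in Bhlhe41dTomato-Cre+/- CCR2low libraries, against 29.7%, 24.4% and 22.6% in Bhlhe41dTomato-Cre+/- CCR2hi libraries. In WT mice Pi16 was 15.1%, 16.6% and 20.9% in CCR2low libraries, against 29.5%, 32.3% and 28.2% in CCR2hi libraries (log2 fold change -0.78, adjusted p = 0.0475, edgeR). CCR2low libraries were thus below CCR2hi libraries for Pi16 in both genotypes, without overlap. That call in WT mice was lost on leaving out any of 8 single libraries, where the adjusted p reached 0.129 (edgeR). It was also lost when only the 6 non-collagen genes of the list were used (log2 fold change -0.74, adjusted p = 0.0539, edgeR).

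Hmcn2 was the member whose ratio to the fibroblast list varied most between WT gates. It was 1.17%, 1.07% and 1.73% in WT CCR2low libraries, against 3.85%, 3.44% and 3.51% in WT CCR2hi libraries (log2 fold change -1.45, adjusted p = 0.000504, edgeR). In Bhlhe41dTomato-Cre+/- mice it was 2.09%, 2.31% and 2.41% in CCR2low libraries, against 2.32%, 2.48% and 2.47% in CCR2hi libraries. Between genotypes in CCR2low 9 members did not pass on this scale, where 59.6% of all genes were called higher and 1.72% lower. These included all 6 that were lower on the TMM scale (adjusted p from 0.140 to 0.916, edgeR). Their log2 fold changes were -0.49 (Tcf21), -0.78 (Ebf2), -0.44 (Cd248), 0.05 (Pi16), 0.10 (Clec3b) and 0.35 (Pdgfra). Between genotypes in CCR2hi no member passed on this scale, where 47% of all genes were called higher and 0.969% lower, and DESeq2 called 2, where it called 50% of all genes in either direction. The interaction passed for no member, where 2.79% of all genes passed, and 0 passed by limma without shrinkage across genes, where 0.227% did. This edgeR fit had nearly the same standard error for all members, 0.382 to 0.480 for comparisons of 2 groups, since its spread was estimated over all genes. A limma fit with each gene's own spread, chosen after seeing the data, called 3 members between gates in Bhlhe41dTomato-Cre+/- mice and 4 in WT mice, where it called 89.3% and 90.5% of all genes in either direction. Between genotypes it called 4 members in CCR2low and 5 in CCR2hi, where it called 48.1% and 28.2% of all genes.

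**Figure D4:**
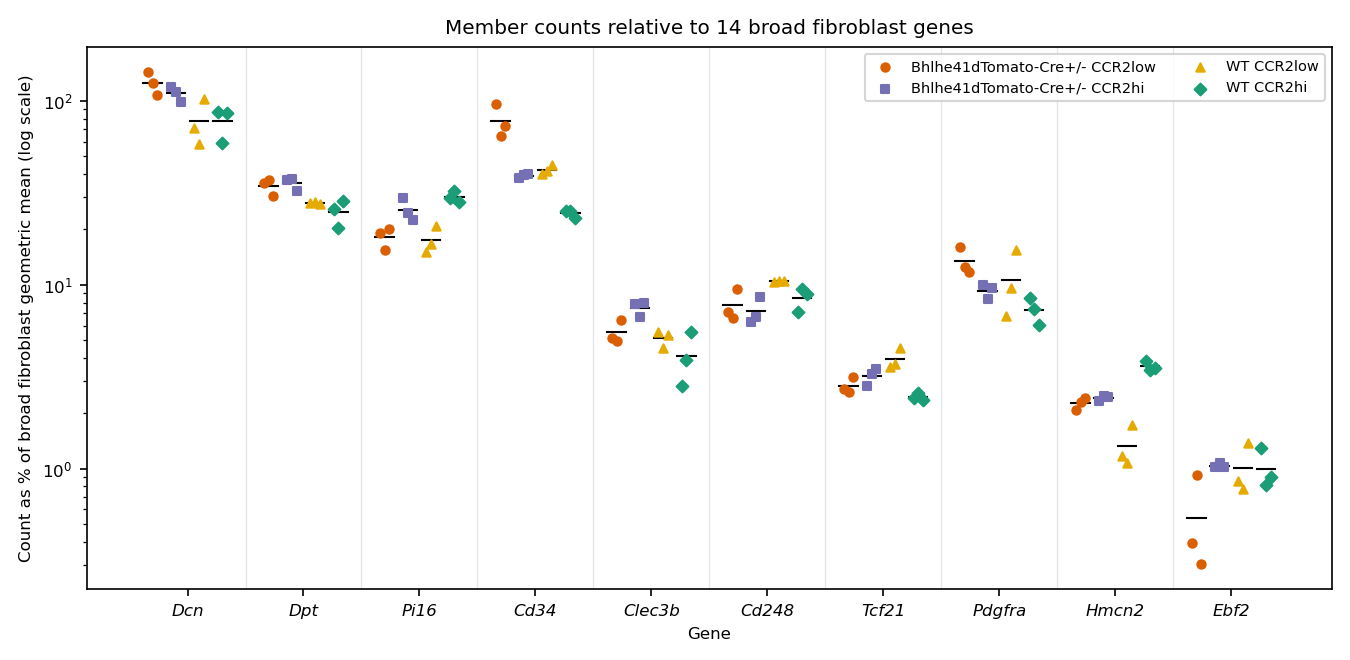
Count of each gene as a percent of the geometric mean of 14 broad fibroblast genes in the same library (log scale); points are libraries and lines are group means (n = 3). Cd34 is highest in Bhlhe41dTomato-Cre+/- CCR2low, and Pi16 is lower in both CCR2low groups than in both CCR2hi groups.

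Most genes of the other fibroblast lists were also lower in CCR2low on the TMM scale. Of 18 further adventitial and universal fibroblast genes, 16 were lower in CCR2low in Bhlhe41dTomato-Cre+/- and 16 in WT mice. Of 18 resting cardiac fibroblast genes, 18 were lower in Bhlhe41dTomato-Cre+/- and 16 in WT mice, and of 12 activated fibroblast genes all 12 were lower in both. The most abundant activated gene, Postn, which encodes the scar protein periostin, had log2 fold changes of -3.51 in Bhlhe41dTomato-Cre+/- and -5.14 in WT mice. Among 16 fibroblast transcription factors 15 were lower in Bhlhe41dTomato-Cre+/- and 14 in WT mice. The exception called higher in both was Zeb2, which macrophages also use, at 1.47 in Bhlhe41dTomato-Cre+/- and 0.84 in WT mice. Relative to the broad fibroblast genes, 10 adventitial, 5 resting cardiac and 6 transcription factor genes were higher in CCR2low in Bhlhe41dTomato-Cre+/- mice, where 90.2% of all genes were. In WT mice 7, 8 and 11 were higher, where 91.9% of all genes were, so in both genotypes each list fell short of the share of all genes. On that scale 2 resting cardiac and 4 activated genes were lower in WT mice, where 0.221% of all genes were. None of these lists had a lower gene in Bhlhe41dTomato-Cre+/- mice, where 0.0334% of all genes were lower.

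Between genotypes part of each list passed. In CCR2low, 10 of 18 adventitial genes, 10 of 18 resting cardiac genes, 9 of 16 transcription factors, 12 of 14 broad fibroblast genes and 5 of 12 activated genes were lower in Bhlhe41dTomato-Cre+/- mice, where 26.7% of all genes were. In CCR2hi the counts were 6, 7, 6, 9 and 7 of the same lists, where 15.9% of all genes were lower. In each gate 1 adventitial gene was higher, and so was Zeb2, by 1.41 in CCR2low (adjusted p = 0.000425) and 0.77 in CCR2hi (adjusted p = 0.0193) on the log2 scale in edgeR. Gsn, the actin-severing protein gelsolin, had log2 fold changes between genotypes of -0.02 in CCR2low and -0.01 in CCR2hi. Mfap4, a microfibril-associated protein, fell by 2.14 in CCR2low (adjusted p = 0.000424) and by 1.91 in CCR2hi (adjusted p = 0.00103) on the log2 scale in edgeR. Fbln1, a fibulin of elastic fibres, fell by 1.73 in CCR2low (adjusted p = 0.000573) and by 1.30 in CCR2hi (adjusted p = 0.00402) on the same scale in edgeR.

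The members' profiles over the 12 libraries were compared as the root mean square (RMS) difference of centred log2 CPM, among 10534 genes with a mean of at least 5 CPM. Col6a2 (0.14), Col6a1 (0.14), Col3a1 (0.14), Col5a1 (0.15) and Tmem45a (0.17) were closest to the members' median profile, and 4 of them are collagens. Among the members Dpt and Dcn were closest to each other (RMS 0.24), followed by Tcf21 and Cd248 (0.26). Cd34 and Ebf2 were farthest apart (0.98). The single nearest gene was Smoc2 for Pi16 (0.28), Sept5 for Tcf21 (0.16), Bicc1 for Pdgfra (0.11), Lama4, a laminin of vessel walls, for Cd34 (0.13), Col1a1 for Cd248 (0.12) and Itih5 for Hmcn2 (0.33). It was Col3a1 for Dpt (0.16), Ecm2 for Dcn (0.22), Lrrc17 for Clec3b (0.20) and Fibin for Ebf2 (0.35).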

How the data were processed

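RNA was measured by RNA-seq in 12 libraries, 3 in each of 4 groups. Per the submitters' processing notes, CASAVA 1.8, STAR 2.4.0j, RSEM and the build mm10 were used; the annotation and strand setting were not given in the sources used here. Expected counts, whole numbers in every cell, and TPM values are as deposited by the authors. The Bhlhe41dTomato-Cre+/- columns carry the gate and the number of the replicate, which matched them to the labels. The members and gene lists were chosen with earlier results of these data known. Counts were filtered by expression, scaled by TMM and fitted with 1 mean per group in edgeR 4.0.16 (R 4.3.3) with 8 residual degrees of freedom; p-values were adjusted over 14964 genes. Standard errors came from the fitted weights and the moderated dispersion, and the common biological coefficient of variation was 18.9%. A second scale set library sizes proportional to the geometric mean (count + 0.5) of 14 broad fibroblast genes, in place of TMM. The scripts were tested on simulated data. Named genes were all members, the 3 most abundant genes of each other fibroblast list, and the nearest profiles; from these the text gives those with the clearest role, chosen after their values were seen. Same-numbered libraries of the 2 gates correlated in their deviations in Bhlhe41dTomato-Cre+/- mice (r = 0.227, 0.119 and 0.396). In WT mice they did not (r = -0.0642, 0.0284 and -0.0476). Same-numbered CCR2hi libraries of different genotypes had r of 0.104, -0.164 and 0.147, so these r values do not settle the pairing. Counts of the 4 Y-linked genes had the same order by number in both gates of Bhlhe41dTomato-Cre+/- mice. They were 1162, 1446 and 105 in CCR2low replicates 1, 2 and 3, and 709, 1413 and 182 in the same CCR2hi replicates. In these mice the main tests between gates thus leave out a possible pairing. The main tests used no pairs. A replicate block was run only as an alternative. It paired the gates by number within each genotype for gate comparisons and the interaction. For genotype comparisons it grouped libraries by number across genotypes. Alternatives were other scalings, no filter, DESeq2 1.42.0, limma 3.58.1 on counts and on log2(TPM + 1) or log2(TPM + 0.1), a 1.5-fold minimum, 2 groups only, a replicate block and leaving out each library; limma without shrinkage was added after seeing the data.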

Additional observations from a re-analysis of the deposited data

Results flagged for a closer look

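The difference between gates itself differed between genotypes for 2 of the 10 genes, by the test of the interaction in edgeR, where 12.6% of all genes passed. Larger parts of some lists of other cell types passed, such as 7 of 8 cardiomyocyte and 6 of 10 mural genes, all negative. Of the 14 broad fibroblast genes none passed. For Tcf21 the interaction was -1.09 (adjusted p = 0.0353): the log2 fold change of CCR2low over CCR2hi was -3.79 in Bhlhe41dTomato-Cre+/- mice and -2.70 in WT mice. For Hmcn2 it was 1.19 (adjusted p = 0.0444): the same log2 fold change was -3.68 in Bhlhe41dTomato-Cre+/- mice and -4.87 in WT mice. Over the alternatives the adjusted p ran from 0.00328 to 0.776 for Tcf21 and from 0.00436 to 0.200 for Hmcn2. Of 23 alternatives the call was lost in 15 for Tcf21, which changed sign in 1 more, and in 10 for Hmcn2. Relative to the broad fibroblast genes neither passed (adjusted p = 0.621 for Tcf21 and 0.231 for Hmcn2, edgeR).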

How the results depend on the processing

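Both comparisons of gates kept all 10 members lower in every alternative run (240 results in each genotype). Scaling to the macrophage list moved the median gene by -1.97 and -3.19 between gates in Bhlhe41dTomato-Cre+/- and WT mice, by 0.227 and -0.976 between genotypes in CCR2low and CCR2hi, and by 1.21 in the interaction. Under it 13599 genes were called between gates in Bhlhe41dTomato-Cre+/- and 14312 in WT mice, 2336 and 9326 between genotypes in CCR2low and CCR2hi, and 5022 in the interaction; a 1.5-fold minimum gave 4928, 5509, 2486, 1329 and 478. For the interaction limma on TPM called 984 (TPM + 1), 846 (TPM + 0.1) and 665 (no filter), and leaving out 1 library 871 to 2801. Between genotypes in CCR2low 2 members were called under macrophage scaling, 3 with no filter, 3 with the 1.5-fold minimum and 3 to 10 without 1 library. In CCR2hi 10 were called under macrophage scaling, 5 by limma-voom, 6 on TPM + 1, 6 with 2 groups only and 3 to 6 without 1 library. For the interaction 1 member was called with RLE, with library size only, with macrophage scaling, by limma-voom and on each TPM scale, 0 with the 1.5-fold minimum and 0 to 3 without 1 library.

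Relative to broad fibroblast genes, the members called without 1 library were 0 to 2 between gates in Bhlhe41dTomato-Cre+/- mice, 1 to 4 in WT mice, 0 to 3 between genotypes in CCR2low and 0 to 2 in CCR2hi. The replicate block called 2 between gates in Bhlhe41dTomato-Cre+/- mice, adding Ebf2 (-0.97, adjusted p = 0.0446, edgeR). It called 1 between genotypes in CCR2hi, where it joined libraries of different mice. Limma without shrinkage called 3, 4 and 5 (gates in Bhlhe41dTomato-Cre+/-, genotypes in CCR2low and in CCR2hi), DESeq2 3 and 2 between genotypes, and non-collagen genes 3 and 1. With non-collagen genes Dcn (0.026) and Ebf2 (0.026) between WT gates and Dpt (0.0036) between Bhlhe41dTomato-Cre+/- gates changed sign; without 1 library these ran from -0.26 to 0.16, -0.30 to 0.22 and -0.12 to 0.026, Cd248 between Bhlhe41dTomato-Cre+/- gates from -0.067 to 0.25, Pi16 and Clec3b between genotypes in CCR2low from -0.047 to 0.19 and -0.024 to 0.18, Ebf2 in CCR2hi from -0.078 to 0.28, and the interaction of Pdgfra from -0.24 to 0.38.

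On the TMM scale, Hmcn2 between genotypes in CCR2low turned to 0.098 (TPM + 1, with or without filter) and 0.20 (TPM + 0.1), and ran from -0.82 to 0.0010 without 1 library, Dcn from -0.89 to 0.011 and Cd34 from -0.64 to 0.018. Clec3b in CCR2hi turned to 0.052 (library size only) and 7.7e-05 (limma-voom), and ran from -0.21 to 0.24. The interaction under macrophage scaling was 1.24 for Pi16, 0.19 for Tcf21, 1.18 for Pdgfra, 0.86 for Dpt, 0.071 for Clec3b, 1.2 for Cd34, 0.58 for Ebf2 and 0.75 for Cd248. For Pi16 it was 0.094 (RLE), 0.094 (DESeq2), 0.20 (no filter), 0.12 (TPM + 1, with or without filter) and 0.051 (TPM + 0.1), and for Cd34 0.0095 (RLE), 0.0095 (DESeq2), 0.11 (no filter), 0.010 (TPM + 1, with or without filter) and 0.0040 (TPM + 0.1). Dcn turned to -0.059 (library size only), -0.096 (limma-voom) and -0.098 (replicate block), Pdgfra to 0.043 (no filter) and Ebf2 to 0.33 (TPM + 1, with or without filter). Without 1 library the interaction ran from -0.32 to 0.44 for Pi16, -0.56 to 0.26 for Pdgfra, -0.47 to 0.45 for Dcn and -0.39 to 0.29 for Cd34. The cause was not tested. The replicate block also called Dpt between genotypes in CCR2low (-0.87, adjusted p = 0.0435) and Tcf21 in CCR2hi (-0.56, adjusted p = 0.0461) in edgeR. Between genotypes that block joined same-numbered libraries of different mice, so these calls rest on no known pairing. The deviations of the same-numbered CCR2low libraries had r of -0.208, -0.0642 and -0.258 between genotypes. Counts of 5 to 36 limit the precision of Ebf2 in Bhlhe41dTomato-Cre+/- CCR2low.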

Other observations

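Counts and TPM of Hmcn2 did not move together, a point noticed after its values were seen. The count per TPM unit, relative to the median of 7526 genes in the same library, stands for the transcript length that the estimate assumed. For Hmcn2 it was 1.43, 3.70 and 1.59 in Bhlhe41dTomato-Cre+/- CCR2low libraries and 2.95, 4.15 and 2.89 in WT CCR2low libraries. In CCR2hi it was 3.22, 3.62 and 2.69 in Bhlhe41dTomato-Cre+/- and 4.79, 4.03 and 3.71 in WT libraries. Its highest value was 3.35 times its lowest, whereas for the other 9 members that ratio was 1.02 to 1.37. Within that smaller range Pi16 differed by genotype, at 1.11 to 1.30 in Bhlhe41dTomato-Cre+/- libraries and 0.983 to 1.05 in WT libraries. The mean of Pi16 in Bhlhe41dTomato-Cre+/- over that in WT CCR2hi libraries was 0.455 in CPM and 0.356 in TPM. In CCR2low it was 0.455 in CPM and 0.382 in TPM.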
